A study of Mus musculus with 8 samples.

Results

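Aminoacyl-tRNA synthetases, the enzymes that join each amino acid to its transfer RNA, were followed in primary mesenchymal cells from the palates of mouse embryos. The group was a named set of 36 genes, 20 for enzymes of the cytosol and 16 for enzymes of the mitochondrion, whose symbols end in 2. Each gene was read through its brightest probe set among those with exactly 1 gene symbol. This gave 35 measured genes, 19 cytosolic and 16 mitochondrial, of 18193 genes on the array. Dars was the member without such a probe set and was not analysed here, and Mars carries its current symbol Mars1.

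The mutant group was Tgfbr2 fl/fl; Wnt1-Cre, with 4 arrays, and the control group was Tgfbr2 fl/fl without Cre, also with 4 arrays. Both groups were of strain C57BL/6J and carried the floxed alleles of Tgfbr2, a receptor for TGF-beta, and both were taken at embryonic day 13.5 and grown for 2 passages. Wnt1-Cre acts in the cranial neural crest and its descendants, so cells of another origin in the culture keep the gene. The labels do not say whether the 4 samples of a genotype came from separate embryos, so each p-value reflects only how much the arrays of a genotype varied, possibly for technical reasons. In a bulk culture, fewer cells of a type and less RNA per cell cannot be told apart.

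Cytosolic synthetases charge the transfer RNAs that serve the main pool of ribosomes, and several of them sit in a large multisynthetase complex. Mitochondrial synthetases are encoded in the nucleus, imported, and serve only the few proteins made from mitochondrial DNA. Many cytosolic synthetase genes are known to be induced by ATF4, the transcription factor of the integrated stress response, through a site called the C/EBP-ATF response element.

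The promoters of 5 cytosolic members with a match to the core of this element are shown first, since the letters and the values below can then be read together; their differences ran from -0.37 for Iars to -0.69 for Tars. The letters searched were TGATGNAA on both strands, in windows of 250 bases before to 50 after each RefSeq start on GRCm38.p6. Of 26 synthetases with a window, 5 of 12 cytosolic genes (41.7%) and 0 of 14 mitochondrial genes held a match, against 3.24% of 14452 tested genes. With 1 more letter, TGATGNAAT, the match held for Aars, Gars and Iars but not for Tars and Yars, against 0.727% of tested genes. In the lines below the capitals mark TGATGNAA on either strand and, in Tars, also a match to the motif of the factor NRF1. The first is Aars, chr8:111033712-111033841, plus strand, the 130 bases before the start. The second is Gars, chr6:55037871-55038000, plus strand, again 130 bases, and the third is Tars, chr15:11399659-11399838, minus strand, 180 bases. For Iars (chr13:49682127-49682156, plus strand) and Yars (chr4:129189896-129189925, plus strand) the match lies just after the start, and 30 bases around it are given.
Aars: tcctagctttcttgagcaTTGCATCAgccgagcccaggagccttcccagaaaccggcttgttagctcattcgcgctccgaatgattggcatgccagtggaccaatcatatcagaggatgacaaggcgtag
Gars: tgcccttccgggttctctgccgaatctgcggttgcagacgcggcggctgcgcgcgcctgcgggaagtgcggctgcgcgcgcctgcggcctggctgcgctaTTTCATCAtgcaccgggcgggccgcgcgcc
Tars: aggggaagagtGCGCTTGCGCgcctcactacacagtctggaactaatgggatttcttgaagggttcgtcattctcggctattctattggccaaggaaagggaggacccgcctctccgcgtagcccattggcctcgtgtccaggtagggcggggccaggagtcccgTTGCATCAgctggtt
Iars: actgtcagtaTTGCATCAcctccagacgcg
Yars: cgagctcagcTGATGCAAcccgacgggact

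The match ended 105 bases before the start in Aars, 23 bases before it in Gars and 8 bases before it in Tars. Aars held another match 9 bases after its start. These are matches of letters only, and no binding was measured. The palindromic NRF1 motif, searched in the same way, was found in 3 of 12 cytosolic genes (Farsb, Kars and Tars) and 2 of 14 mitochondrial genes (Iars2 and Mars2), against 8.61% of tested genes.

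Before the members, 4 facts of the whole series bear on their values. The targeted gene Tgfbr2 averaged 12.42 ± 0.47 in mutant and 12.04 ± 0.40 in control arrays (log2 intensity, SD, n = 4 each), a difference of 0.37 with adjusted p = 0.538 in limma, and its probes could not be placed against the floxed exons, so the gene is no check of the labels. Mutant 4 stood apart from its group: over all genes its correlation was 0.9916 with control 3 and 0.9706 to 0.9766 with mutants 1 to 3. No label names a hybridisation batch: the batches used below were read from the intensities of the bioB hybridisation controls. These were lower on replicates 1 and 2 of both genotypes (6.34 to 6.52) and higher on replicates 3 and 4 (8.24 to 8.79). Markers of palatal mesenchyme were present, with 11 of 13 above the median probe set on every array, and so were 20 of 21 macrophage and leukocyte markers. Of the 13 mesenchyme markers 9 read lower in mutants, against 51.7% of all genes, with a median of -0.15. At an unadjusted p under 0.05 in limma 3 of the 13 were lower, against 9.69% of all genes. They were Dlx5 (-1.13), Col3a1 (-0.38) and Col1a1 (-0.37), the collagens at about the size of the cytosolic median below. The list went both ways, and 4 markers read higher: Pdgfra (0.92, SE 0.52), Osr2 (0.20), Vim (0.03) and Shox2 (0.02). The part of the mesenchyme markers in the results was not tested. All 21 macrophage markers read higher in mutants, against 8795 of all 18193 genes. At an unadjusted p under 0.05 in limma 5 of the 21 were higher, against 5.84% of all genes. The list means were 13.31, 13.31, 13.31 and 11.19 on mutant arrays 1 to 4, against 12.50, 12.72, 11.27 and 11.14 on control arrays 1 to 4.

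Cytosolic synthetases read lower in mutant cells, by a median of 0.38 on the log2 scale over 19 genes, and mitochondrial synthetases by a median of 0.04 over 16 genes. The mitochondrial median was less settled: it was -0.13 without mutant 4, -0.11 without control 1 and -0.14 with each gene's most variable probe set, and the array means of the class differed by -0.10. The cytosolic difference was negative for 18 of 19 genes and the mitochondrial one for 11 of 16, against 51.7% of all genes. No member passed Benjamini-Hochberg adjustment over all genes in limma, where 16 genes (0.0879%) passed in either direction and 12 (0.066%) as lower, and the lowest adjusted p of a member was 0.187. At an unadjusted p under 0.05 in limma, 11 cytosolic and 2 mitochondrial genes were lower, against 9.69% of all genes, and Fars2 was higher, against 5.84%. The 4 mutant arrays lay below all 4 control arrays for 9 of 19 cytosolic genes and 0 of 16 mitochondrial genes, against 5.18% of all genes and 8.09% of the 7146 genes with a mean over 9.0. They lay above all controls for 0 members, against 2.89% of all genes. No test was made over the lists, so whether the classes differ was not tested.

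**Figure D1:**
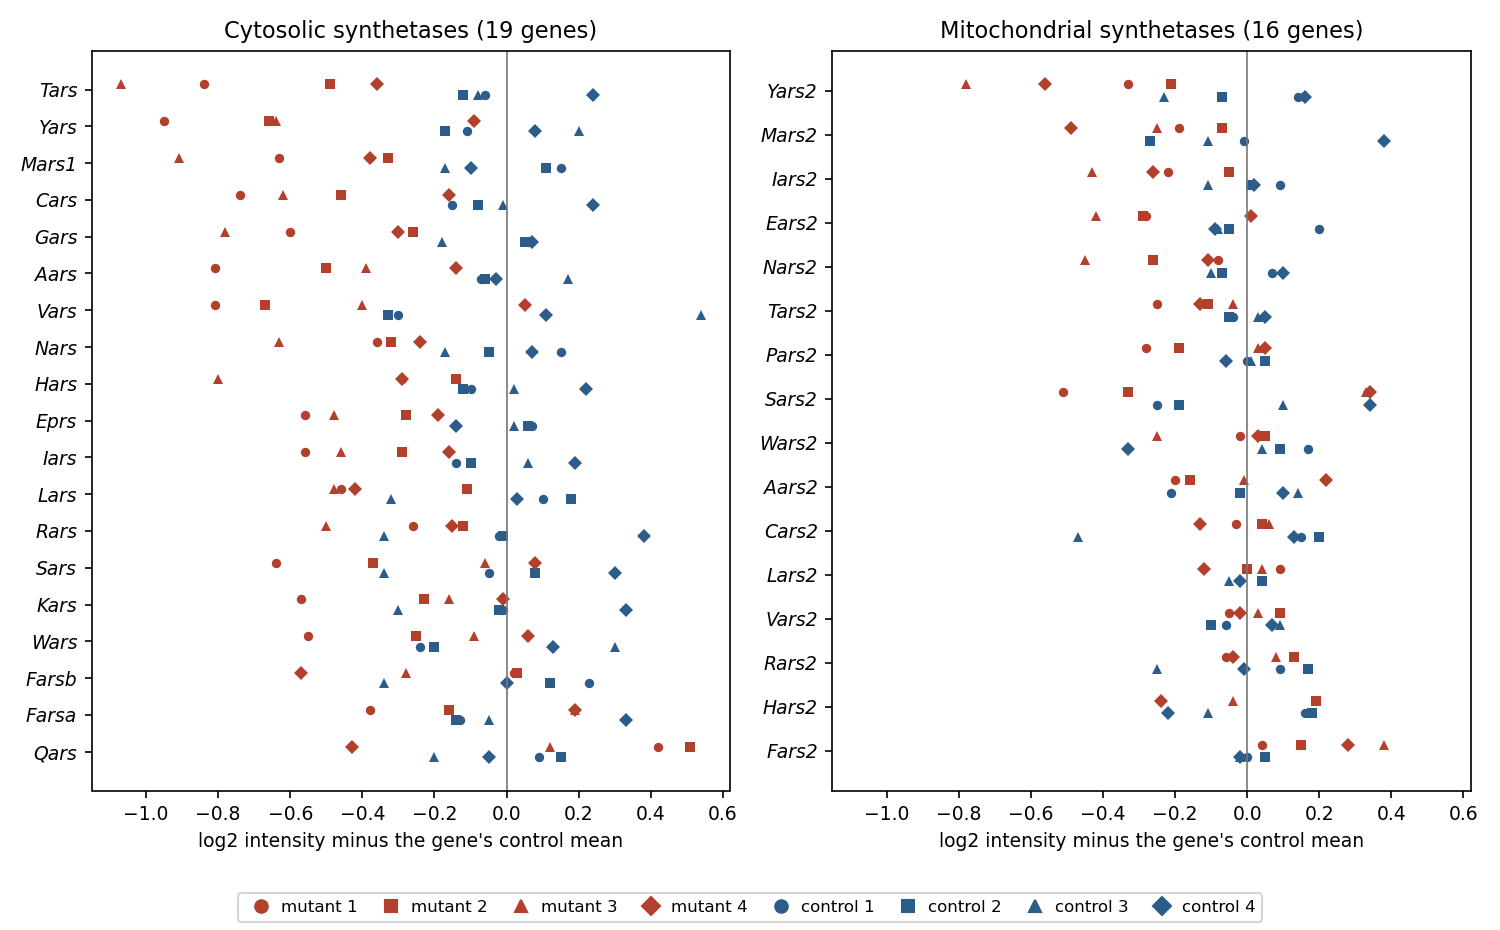
Log2 intensity of each synthetase on each array, minus that gene's control mean, for 19 cytosolic genes (left) and 16 mitochondrial genes (right), with mutant arrays in red above control arrays in blue and a symbol for each replicate. For 9 cytosolic genes all red points lie left of all blue points, and for 0 mitochondrial genes.

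Among members of the multisynthetase complex, 6 of 7 measured genes were lower in mutants, with a median difference of -0.36. Mars1, the methionyl enzyme that also charges the initiator transfer RNA, read 11.20, 11.50, 10.92 and 11.45 on mutant arrays 1 to 4, against 11.98, 11.94, 11.66 and 11.73 on control arrays 1 to 4. Every mutant array was below every control array, with mutant 3 the lowest. The difference was -0.56 (SE 0.14, 95% interval -0.89 to -0.23), or 32.1% less on the linear scale, with adjusted p = 0.187 in limma.

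Eprs encodes the fused glutamyl and prolyl enzyme, which charges both of these amino acids. It read 11.58, 11.86, 11.66 and 11.95 in mutants 1 to 4, against 12.21, 12.20, 12.16 and 12.00 in controls 1 to 4. The groups did not overlap, though mutant 4 came within a narrow gap of control 4, the lowest control. The difference was -0.38 (SE 0.10, adjusted p = 0.189 in limma), and the next brightest probe sets of Eprs read -0.54 and -0.49.

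Iars, the isoleucyl enzyme, read 11.30, 11.57, 11.40 and 11.70 in mutants 1 to 4, against 11.72, 11.76, 11.92 and 12.05 in controls 1 to 4. Here too the genotypes were separate, with mutant 4 closest to the controls. The difference was -0.37 (SE 0.12, adjusted p = 0.214 in limma). Lars, the leucyl enzyme that is also a leucine sensor for mTORC1, read 11.32, 11.67, 11.30 and 11.36 in mutants 1 to 4, against 11.88, 11.96, 11.46 and 11.81 in controls 1 to 4. Mutant 2 lay above control 3, so the groups overlapped, and the difference was -0.36 (SE 0.13, adjusted p = 0.262 in limma).

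The other 3 members of the complex had intervals that included 0. Kars, the lysyl enzyme whose gene serves both cytosol and mitochondrion, differed by -0.24 (95% interval -0.61 to 0.13), and Rars, the arginyl enzyme, by -0.26 (-0.61 to 0.10). Qars, the glutaminyl enzyme, was the only cytosolic member with a positive difference, 0.16 (-0.30 to 0.62). It read 12.21, 12.30, 11.91 and 11.36 in mutants 1 to 4, against 11.88, 11.94, 11.59 and 11.74 in controls 1 to 4. Mutant 4 was the lowest of all 8 arrays for Qars, mutants 1 and 2 were the highest of them, and without mutant 4 the difference was 0.35. Fitting the macrophage marker mean alongside genotype gave -0.10.

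All 12 cytosolic synthetases outside the complex read lower in mutants on the probe sets used, with a median difference of -0.42. For Farsa, at -0.04, the sign turned with all probe sets averaged (0.11), quantile normalization (0.02) and the macrophage covariate (0.11). Tars, the threonyl enzyme, had the largest difference and the smallest p of the 35 members. It read 10.87, 11.22, 10.64 and 11.35 in mutants 1 to 4, against 11.65, 11.59, 11.63 and 11.95 in controls 1 to 4. The groups were fully separate, with mutants 1 and 3 the lowest. The difference was -0.69 (SE 0.17, 95% interval -1.07 to -0.31), 37.9% less on the linear scale, with adjusted p = 0.187 in limma.

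Yars, the tyrosyl enzyme, followed with 8.81, 9.10, 9.12 and 9.67 in mutants 1 to 4, against 9.65, 9.59, 9.96 and 9.84 in controls 1 to 4. Mutant 4 sat among the controls and the other mutants below them. The difference was -0.59 (SE 0.18, adjusted p = 0.208 in limma). Cars, the cysteinyl enzyme, read 9.26, 9.54, 9.38 and 9.84 in mutants 1 to 4, against 9.85, 9.92, 9.99 and 10.24 in controls 1 to 4. The groups of Cars met without overlapping, and the difference was -0.50 (SE 0.14, adjusted p = 0.192 in limma).

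Gars, the glycyl enzyme that also supplies mitochondria, was the brightest member. It read 12.30, 12.64, 12.12 and 12.60 in mutants 1 to 4, against 12.96, 12.95, 12.72 and 12.97 in controls 1 to 4. All mutants were below all controls, and the difference was -0.49 (SE 0.13, adjusted p = 0.189 in limma). Aars, the alanyl enzyme, read 11.39, 11.70, 11.81 and 12.06 in mutants 1 to 4, against 12.13, 12.14, 12.37 and 12.17 in controls 1 to 4. Its groups were separate too, with mutant 4 just under the controls and a difference of -0.46 (SE 0.14, adjusted p = 0.205 in limma).

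Nars, the asparaginyl enzyme, read 12.29, 12.33, 12.02 and 12.41 in mutants 1 to 4, against 12.80, 12.60, 12.48 and 12.72 in controls 1 to 4. Both probe sets of Nars gave nearly the same difference, -0.39 and -0.41, and the groups did not overlap (SE 0.11, adjusted p = 0.190 in limma). Hars, the histidyl enzyme, read 11.57, 11.72, 11.06 and 11.57 in mutants 1 to 4, against 11.76, 11.74, 11.88 and 12.08 in controls 1 to 4. Its groups did not overlap either, but mutant 2 came close to control 2 and the difference of -0.38 split into -0.10 between arrays of the first hybridisation batch and -0.66 in the second.

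The remaining cytosolic members had intervals that included 0. Vars, the valyl enzyme, differed by -0.46 with a wide interval (-1.02 to 0.09), and Sars, the seryl enzyme, by -0.25 (-0.67 to 0.18). Wars, the tryptophanyl enzyme, which is known to be induced by interferon gamma, differed by -0.20 (-0.59 to 0.18). In a list of interferon-induced genes 10 of 10 measured read higher in mutants, against 8795 of all 18193 genes, with a median of 0.77. The list was not restricted to interferon gamma. Its differences ran from 0.15 for Irf1, 0.16 for Cxcl10 and 0.20 for Gbp2 up to 1.57 for Usp18. The subunits of the phenylalanyl enzyme, Farsa and Farsb, differed by -0.04 (-0.41 to 0.33) and -0.20 (-0.59 to 0.18). Farsa had the smallest difference of the cytosolic members.

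**Figure D2:**
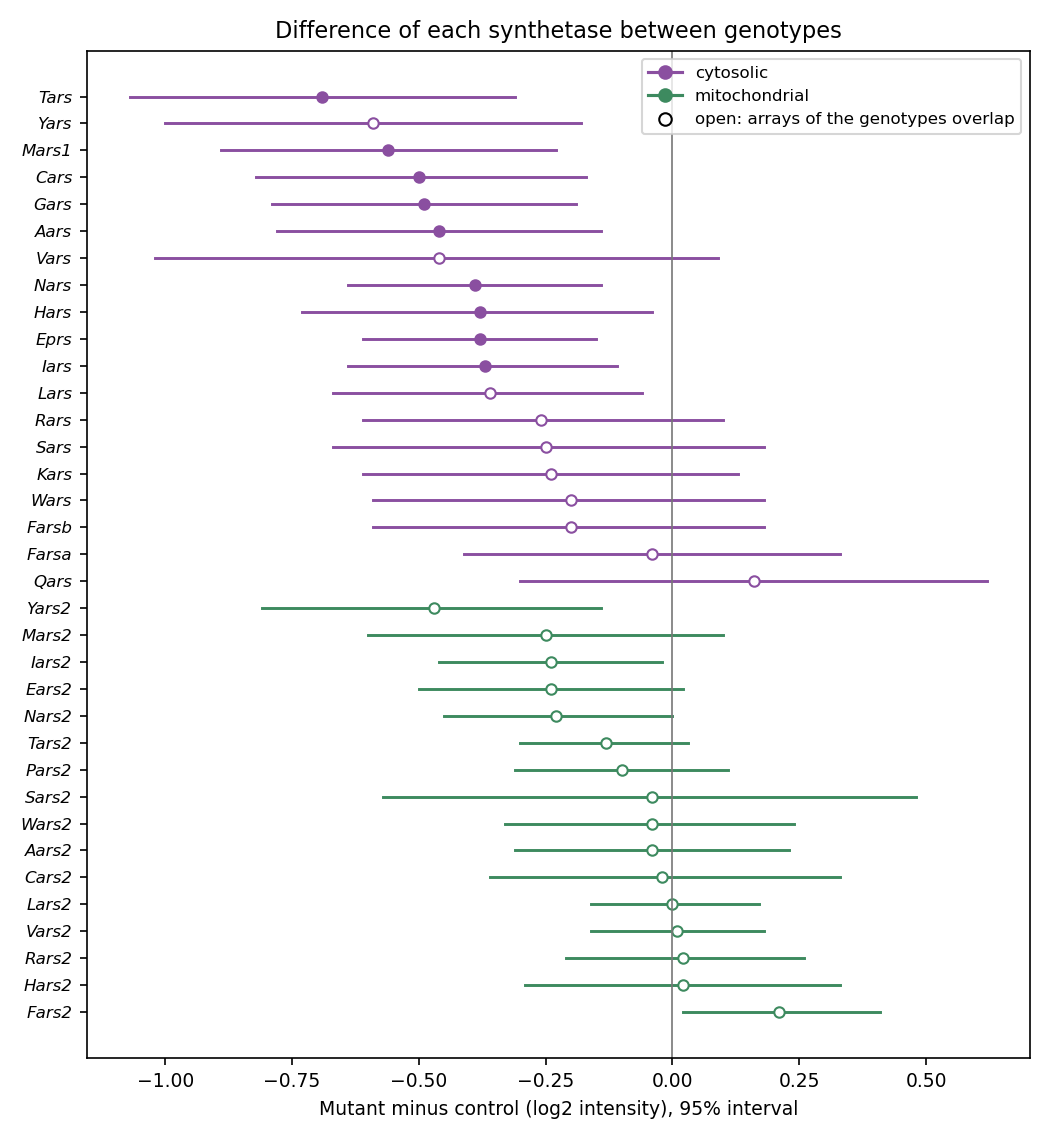
Difference between mutant and control arrays in log2 intensity for each of the 35 synthetases, with limma's 95% interval as a line. Filled points mark genes whose arrays do not overlap between genotypes, 9 cytosolic and 0 mitochondrial.

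Probe sets bear on the smallest cytosolic differences. Affymetrix gives the suffix x to probe sets with probes that may match other transcripts, and the brightest probe set was of this kind for 3 cytosolic genes, Qars, Farsb and Wars. The brightest probe sets of these genes without that suffix read 0.06, -0.15 and -0.21. The one of Farsb carried another suffix letter, s, as did the probe sets used for Iars and Aars. The further probe sets of Iars and Aars, without a suffix letter, both read -0.47. How specific any of these probe sets are was not tested. Over all 21 further probe sets of 11 cytosolic genes, 18 had the same sign as the one used, and their median was -0.21. Of the 18 that were brighter than the median probe set, 14 were negative, with a median of -0.22. The 3 further probe sets of Farsa, by contrast, read 0.23, 0.13 and 0.10. Over the 16 further probe sets of 12 mitochondrial genes, 9 had the same sign as the one used, and their median was -0.08. Only 8 of them were brighter than the median probe set, of which 3 had the same sign, and the median of these 8 was -0.19. The medians on the brighter further probe sets were close, -0.22 for cytosolic and -0.19 for mitochondrial genes, but they do not cover the same genes as the class medians. Genes with 1 probe set, such as Tars, Mars1, Yars, Gars and Vars, do not enter them. Qars, Farsa, Farsb, Wars and Eprs had 4 probe sets each and weigh more. Whether the classes differ on these probe sets was not tested.

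The cytosolic genes commonly described as stress-induced targets of ATF4 made up 13 of the 19. All 13 of these were lower, with a median of -0.46. Of these, 10 had an unadjusted p under 0.05 in limma, against 9.69% of all genes and 15.5% of those with a mean over 9.0, and 8 did not overlap between genotypes, against 5.18% and 8.09%. The other 6 cytosolic genes (Farsa, Farsb, Hars, Kars, Qars and Rars) had a median of -0.22, and 1 of them, Hars, had an unadjusted p under 0.05 and no overlap. The mean of the 13 was 10.71, 10.98, 10.82 and 11.19 on mutant arrays 1 to 4, against 11.32, 11.31, 11.36 and 11.45 on control arrays 1 to 4. The mean of the other 6 was 11.23, 11.39, 11.17 and 11.20 on mutant arrays 1 to 4, against 11.42, 11.41, 11.21 and 11.61 on control arrays 1 to 4. The first set was separate between genotypes and the second overlapped, and the difference between them was not tested. The promoter matches shown above all belonged to the stress-listed set, in 5 of the 8 of them with a window, against 0 of 4 of the other cytosolic genes with one. That set was listed as targets of ATF4, which acts through this element, so matches in it were favoured in advance. They are no separate evidence, and a part of ATF4 in the lower values was not tested.

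**Figure D3:**
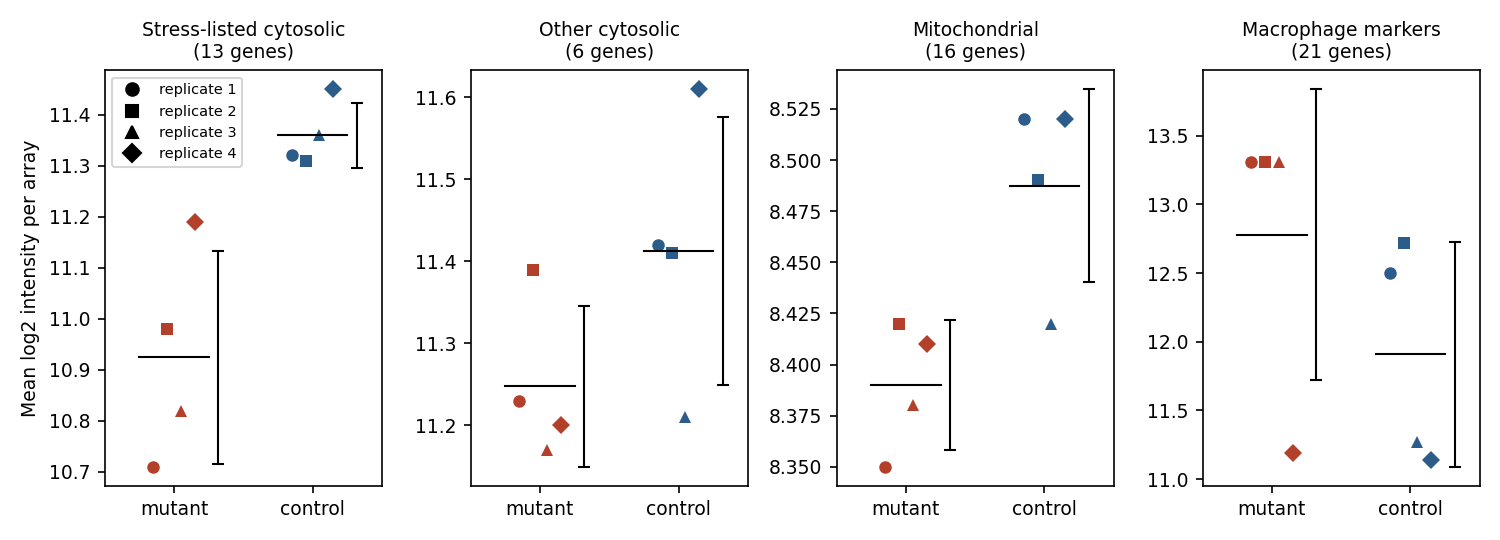
Mean log2 intensity per array for 13 stress-listed cytosolic synthetases, 6 other cytosolic synthetases, 16 mitochondrial synthetases and 21 macrophage markers, with mutant arrays left of control arrays, a symbol for each replicate, a line at each group mean and bars of 1 SD (n = 4). The y axes differ between panels and do not start at 0; the stress-listed means run from 10.71 to 11.19 in mutants and from 11.31 to 11.45 in controls.

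Mitochondrial synthetases had smaller differences in both directions. The mean of the 16 was 8.35, 8.42, 8.38 and 8.41 on mutant arrays 1 to 4, against 8.52, 8.49, 8.42 and 8.52 on control arrays 1 to 4. The means of the groups were 8.39 ± 0.03 in mutants and 8.49 ± 0.05 in controls (SD, n = 4 each), and mutant 2 reached the level of control 3. On the probe sets used, intervals for several genes were narrow around 0: Lars2, the leucyl enzyme, differed by 0.00 (95% interval -0.16 to 0.17) and Vars2, the valyl enzyme, by 0.01 (-0.16 to 0.18). Dimmer probe sets of the same genes read lower in mutants, -0.25 (SE 0.09) for Lars2, beside another at -0.03, and -0.33 (SE 0.10) for Vars2, so a lower level of these genes is not excluded.

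Yars2, the mitochondrial tyrosyl enzyme, departed most from the rest of its class. It read 8.96, 9.08, 8.51 and 8.73 in mutants 1 to 4, against 9.43, 9.22, 9.06 and 9.45 in controls 1 to 4. Only mutant 2 passed the lowest control. The difference was -0.47 (SE 0.15, 95% interval -0.81 to -0.14, adjusted p = 0.211 in limma). The probe set used for Yars2 was of the x kind, and the other probe set read -0.39.

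Iars2, the isoleucyl enzyme, read 9.29, 9.46, 9.08 and 9.25 in mutants 1 to 4, against 9.60, 9.52, 9.40 and 9.53 in controls 1 to 4. Again only mutant 2 passed the lowest control, and the difference was -0.24 (SE 0.09, adjusted p = 0.285 in limma). Fars2, the phenylalanyl enzyme, ran the other way, with 9.75, 9.86, 10.09 and 9.99 in mutants 1 to 4, against 9.71, 9.76, 9.69 and 9.69 in controls 1 to 4. Mutants 3 and 4 were the highest arrays, and the difference was 0.21 (SE 0.09, adjusted p = 0.295 in limma). Within the hybridisation batches Fars2 differed by 0.07 and 0.35.

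The other mitochondrial members ranged from -0.25 for Mars2, the methionyl enzyme and the dimmest member (mean 5.27), to 0.02 for Hars2 and Rars2. Ears2, the glutamyl enzyme, and Nars2, the asparaginyl enzyme, differed by -0.24 (-0.50 to 0.02) and -0.23 (-0.45 to 0.00), and for each 3 of 4 mutants lay below all controls. Tars2 differed by -0.13 and Pars2, the prolyl enzyme, by -0.10. Aars2, Sars2 and Wars2 each differed by -0.04 and Cars2 by -0.02. Sars2 had the widest interval of the class, -0.57 to 0.48.

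Cytosolic and mitochondrial enzymes for the same amino acid were then set side by side. In 17 pairs made from 16 cytosolic and 16 mitochondrial genes, with Eprs and Fars2 each used in 2, the cytosolic difference was the more negative in 17. The median gap was -0.28 on the log2 scale. The array-wise gap did not overlap between genotypes for 3 pairs: Tars and Tars2 (-0.55, SE 0.19), Aars and Aars2 (-0.42, SE 0.08), and Eprs and Pars2 (-0.28, SE 0.09). It overlapped for all other pairs. The gap was smallest for Yars and Yars2 (-0.11, SE 0.30), and it was within its SE also for Iars and Iars2 (-0.13, SE 0.14) and Wars and Wars2 (-0.16, SE 0.26). Neither count of pairs was made over pairs of other genes, so neither has a background share. On each array the mean of the cytosolic genes minus that of the mitochondrial genes was 2.52, 2.68, 2.55 and 2.78 in mutants 1 to 4, against 2.83, 2.86, 2.90 and 2.98 in controls 1 to 4. The level of this gap reflects the probes, and only its change between arrays carries meaning.

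**Figure D4:**
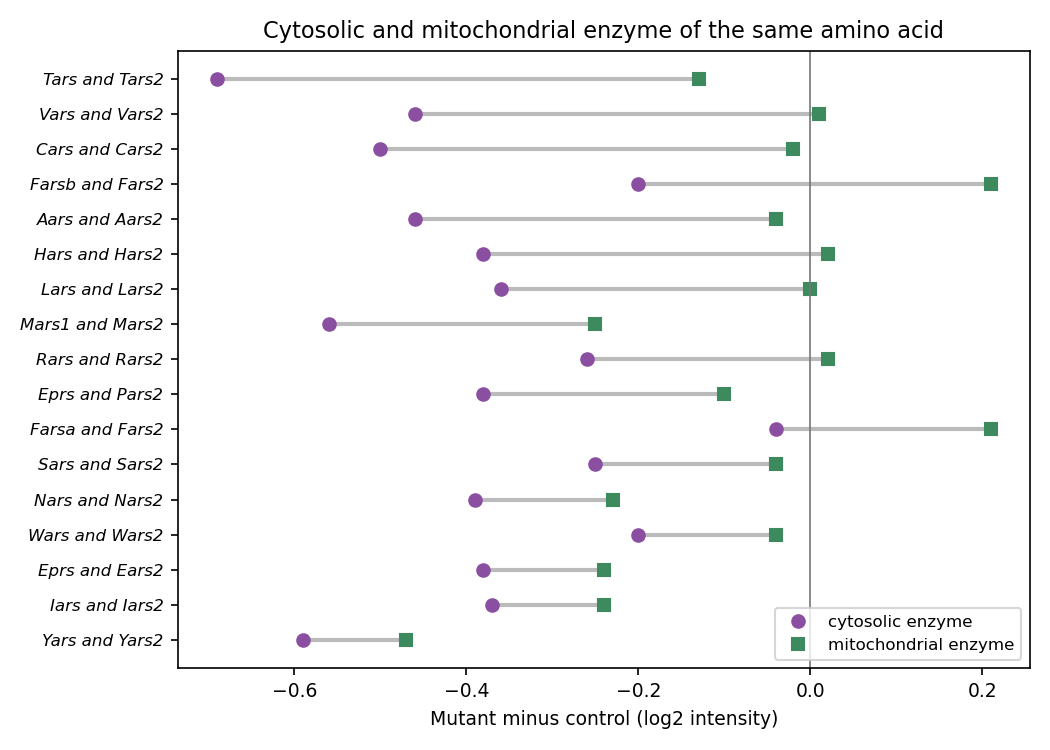
Difference between mutant and control arrays in log2 intensity for the cytosolic enzyme (circle) and the mitochondrial enzyme (square) of the same amino acid, in 17 pairs ordered by the gap. The circle lies left of the square in all 17, with the widest gap for Tars and Tars2 (-0.55).

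Mitochondrial probe sets were dimmer, with a median mean intensity of 8.71 against 11.67 for the cytosolic ones, and brighter genes were more often lower in mutants on these arrays: 61.6% of genes with a mean over 9.0 had a negative difference, and 15.5% were lower at an unadjusted p under 0.05. Its part in the class difference was not tested. In the range that both classes shared, from 9.25 for the dimmest cytosolic gene to 10.14 for the brightest mitochondrial one, 5 cytosolic genes had a median difference of -0.46. The 3 mitochondrial genes there (Iars2, Fars2 and Rars2) had a median of 0.02, and all 2220 genes in it -0.10. Yars2, the most negative of its class, lay just under that range at a mean of 9.05.

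Larger differences are favoured in advance when mutant 4, the array closest to the controls, is left out. Without it the cytosolic median was -0.44 and the mitochondrial median -0.13, and 5 members passed the limma test over all genes, where 3.49% of genes passed as lower: Tars (-0.80, adjusted p = 0.0299), Yars (-0.75, adjusted p = 0.0219), Cars (-0.61, adjusted p = 0.0303), Aars (-0.57, adjusted p = 0.0363) and Eprs (-0.44, adjusted p = 0.0415). In that fit 1316 genes passed in either direction, against 16 with all 8 arrays. With any other single array left out, 0 members passed. Mutant 1 was the lowest array for 10 cytosolic genes and mutant 3 for 7, and control 4 was the highest for 9. Mutants 1, 2, 3 and 4 were below all controls for 16, 14, 13 and 12 of the 19 genes. Counts of this kind for single arrays were not made over all genes. They describe the arrays only and cannot be read as particular to the synthetases.

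Within the hybridisation batches the cytosolic median was -0.43 in the first and -0.34 in the second, and the mitochondrial median -0.13 and -0.01. In the first batch alone 7 members passed in limma with all of them lower, where 6.43% of genes did: Yars, Mars1, Aars, Vars, Tars, Sars and Eprs. In the second alone 0 genes of the whole table passed as lower in limma, and 1 cytosolic and 1 mitochondrial gene were lower at an unadjusted p under 0.05, against 3.52% of all genes. When the macrophage marker mean was fitted alongside genotype, the cytosolic median was -0.32 and the mitochondrial median -0.10, and 11 cytosolic genes were lower at an unadjusted p under 0.05 in limma, against 9.44% of all genes. Weighting arrays by their fit brought 8 cytosolic members past adjustment in limma, where 5.1% of genes passed as lower.

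Other genes of transfer RNA charging and translation are given from lists written for this comparison. Of 13 partners of the synthetases 9 were lower, with a median of -0.15, and 4 were lower at an unadjusted p under 0.05 in limma, against 51.7% and 9.69% of all genes. Aimp2, a scaffold of the multisynthetase complex, differed by -0.50 (SE 0.17, adjusted p = 0.242 in limma), and its fellow scaffolds Aimp1 and Eef1e1 by -0.15 and -0.26. Mtfmt, which formylates the mitochondrial initiator, differed by -0.18 (SE 0.07), and the deacylase gene Dtd1 by -0.25 (SE 0.10). The enzymes that make mitochondrial glutaminyl transfer RNA by amidation, Qrsl1, Gatb and Gatc, differed by -0.15, 0.15 and 0.02.

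Cytosolic translation factors were lower in 18 of 19 cases, with a median of -0.20. Of all genes 51.7% were lower, and of those with a mean over 9.0, as all of this list had, 61.6%. At an unadjusted p under 0.05 in limma 3 were lower (15.8%), near the 15.5% of genes with a mean over 9.0 and above the 9.69% of all genes. They were Eif2b3 (-0.49, SE 0.19) and Eif2b5 (-0.33, SE 0.11), subunits of the exchange factor for eIF2, and Eif3c (-0.38, SE 0.13), a subunit of initiation factor eIF3. The other exchange factor subunits Eif2b1, Eif2b2 and Eif2b4 lay near the list median, at -0.21, -0.23 and -0.23. The elongation factor that carries charged transfer RNA to the ribosome, Eef1a1, differed by 0.02 (SE 0.06). Mitochondrial translation genes had a median of -0.13 over 19 genes, of which 15 were lower and 6 did not overlap, against 51.7% and 5.18% of all genes. The mitochondrial ribosomal gene Mrps22 differed by -0.24 (SE 0.07), and Tsfm, an elongation factor, by -0.31 (SE 0.10). None of these list members passed over all genes in limma.

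The transcription factor gene Atf4 differed by -0.25 (SE 0.17, adjusted p = 0.510 in limma), and the kinase Eif2ak4, which senses uncharged transfer RNA, by -0.02 (SE 0.12). Both belonged to a list of 8 genes, with Eif2ak1, Eif2ak2, Eif2ak3, Gcn1, Ppp1r15a and Ppp1r15b, not all of which sense uncharged transfer RNA. Of the 8 genes 0 had an unadjusted p under 0.05 in limma, and 0 passed over all genes. Targets of ATF4 other than synthetases were lower in 24 of 27 cases, against 51.7% of all genes, with a median of -0.63. Of these, 17 were lower at an unadjusted p under 0.05 in limma, against 9.69% of all genes, 11 did not overlap, against 5.18%, and 0 passed over all genes. Asns, which makes asparagine, the amino acid charged by Nars, differed by -0.72 (SE 0.14, adjusted p = 0.142 in limma). That such targets were low on these arrays was known when the list was written. Their array means were 10.40, 10.73, 10.68 and 10.97 in mutants 1 to 4, against 11.24, 11.15, 11.24 and 11.00 in controls 1 to 4, and mutant 1 was again the lowest.

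**Figure D5:**
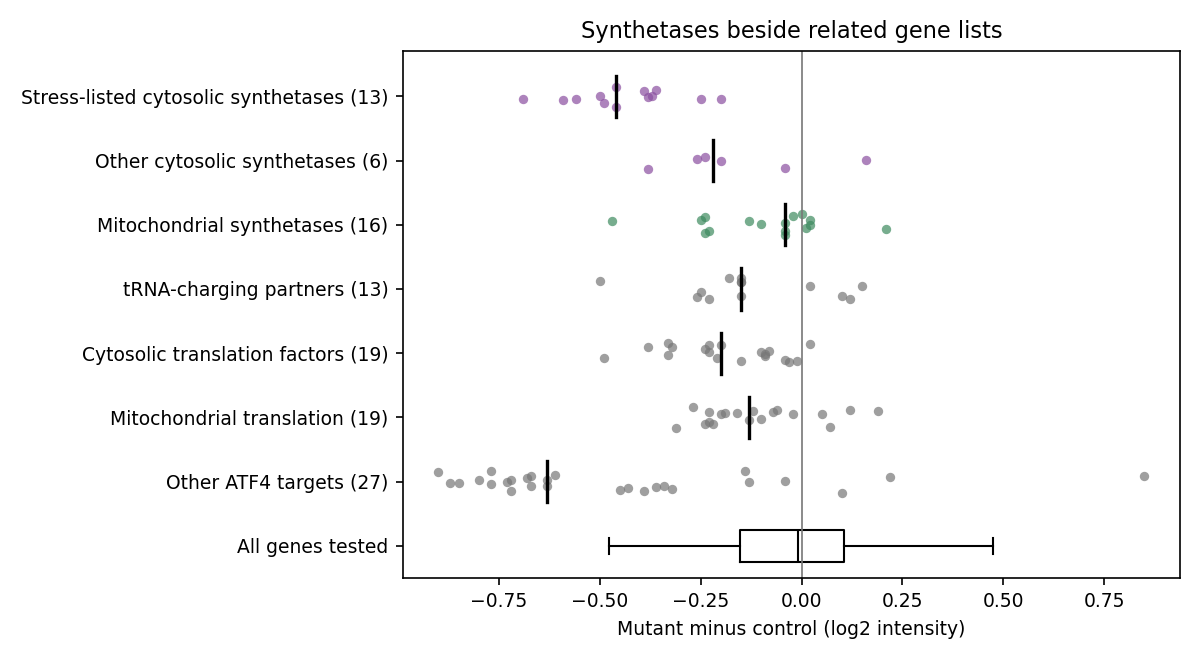
Difference between mutant and control arrays in log2 intensity for each gene (points) of the 3 sets of synthetases and 4 related lists, with a line at each median and a box for all genes tested (quartiles, whiskers from the 5th to the 95th percentile). Medians run from -0.63 for ATF4 targets and -0.46 for stress-listed synthetases to -0.04 for mitochondrial synthetases and -0.01 for all genes.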

How the data were processed

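Expression was measured on Affymetrix arrays with biotin-labelled RNA, per the labels' protocols. The deposited values are log2 intensities, which the authors made with RMA per the submitters' processing notes, with no version stated there. They ran from 3.21 to 15.18 and were used as deposited. The 8 arrays limit the precision of each value.

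Of 45101 probe sets, 34945 carried exactly 1 gene symbol, 932 carried several, and 9160 had no entry in the annotation used. Symbols were updated by Entrez identifier (34741 matched a RefSeq table of GRCm38.p6), and the brightest probe set stood for each gene. Differences are mutant minus control from limma 3.58.1 in R 4.3.3 (two-sided, no covariate), with Benjamini-Hochberg adjustment over 18193 genes at 0.05. SE and intervals are limma's.

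Members, lists, tests, alternatives and the rule for named genes were chosen with earlier results of these data known. All measured members could be named, with array values given for those with an unadjusted p under 0.05, and up to 4 genes of other lists by smallest p, besides genes named for their role. On simulated data with 18193 genes, 4 against 4 arrays, 32% of 100 genes changed by 0.5 and 74% of 100 changed by 1 were recovered, with 3 false calls among 109. The simulated noise was normal and independent between genes and arrays. It held no batches, no shared marker shifts and no array like mutant 4, so these rates need not hold for the real arrays. Promoters came from RefSeq and matched 26 members.
The shared range of means was set after seeing the data. Alternatives changed the normalization, probe set, filter, variance model, batches and arrays used.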

Additional observations from a re-analysis of the deposited data

Results flagged for a closer look

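The spread of each member, and of the array means of both classes and their gap, was checked in each genotype for a single array far from the other 3 by Dixon's ratio at its 95% critical value, in 76 groups of 4 arrays. It marked 4 groups, all controls, and chance marks about 1 in 20. Gars read 12.72 in control 3, against 12.95 to 12.97 in the other controls, and Cars2 read 8.28 in control 3, against 8.88 to 8.95. Tars read 11.95 in control 4, against 11.59 to 11.65, and Ears2 read 8.15 in control 1, against 7.86 to 7.90. For Gars and Tars all 4 mutants lay below even the lowest control.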

How the results depend on the processing

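The cytosolic median of -0.38 stayed between -0.43 and -0.32 over all alternatives that kept 8 arrays or 1 hybridisation batch, and between -0.44 and -0.32 with 1 array left out. The mitochondrial median of -0.04 was -0.09 with all probe sets of a gene averaged and -0.14 with the most variable one. It was -0.10 with array weights, -0.13 in the first hybridisation batch, -0.12 with the level of the poly-A labelling controls as a block and -0.10 with the macrophage covariate, and ran from -0.13 to -0.04 with 1 array left out. The gap between the medians, -0.34, was -0.23 with that block and with the macrophage covariate, and -0.36 to -0.23 with 1 array left out, the smallest gap being without mutant 3. No label names a labelling batch: the block was read from poly-A control intensities, which were low on mutants 3 and 4 and control 3 (6.77 to 7.56) and higher on the other 5 arrays (8.53 to 9.21), so it is unevenly spread over the genotypes. The cause of these shifts was not tested.

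The count of members past adjustment over all genes, 0, was 8 with array weights (Tars, Mars1, Eprs, Gars, Nars, Cars, Aars and Yars, where 5.1% of genes passed as lower), 7 in the first hybridisation batch, 0 to 5 with 1 array left out, and 0 under an adjusted p of 0.1. The 11 cytosolic genes lower at an unadjusted p under 0.05 in limma became 8 with the most variable probe set and 1 in the second hybridisation batch. They became 12 with the hybridisation or labelling block, 13 with array weights or in the first batch, and 9 to 11 with 1 array left out. The 2 mitochondrial genes became 5 with each array centred on its median, 4 with the most variable probe set or array weights, and 3 in the first batch. They became 1 with quantile normalization, trended variance or the second batch, and 1 to 3 with 1 array left out. Same-numbered samples deviated together for replicates 1, 2 and 4 (correlations 0.473, 0.416 and 0.371) but not 3 (-0.0916), so the numbers were not taken as pairs. With the replicate block 0 members passed, 13 cytosolic genes and 3 mitochondrial genes were lower at an unadjusted p under 0.05, and the medians were -0.38 and -0.04. Only 4 arrays per genotype and dim probe sets such as Mars2 limit what could be seen.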
